A study of Homo sapiens with 6 samples.

Results

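The enzymes of protein N-glycosylation and of amino sugar supply were examined after silencing of SPINK2 in FUJIOKA, a cell line from a human acute myeloid leukaemia. The set holds 54 genes of the 63236 in the authors' deposited table, found there by gene symbol, and each of the 54 has an adjusted p-value, as do 17395 genes in all. They were listed by their place in the pathway around DPAGT1 and RENBP, and those 2 genes were picked for their fold changes in this same comparison, so their values are given as a description without a test. The table compares 3 libraries labelled shNEG, with a non-targeting control shRNA, and 3 labelled shSPINK2. Both groups are the same cell line with a stably integrated lentiviral vector that carries puromycin resistance and expresses its shRNA under doxycycline. Only 1 SPINK2 shRNA is described in the study's methods but 2 in the labels, which do not tie either to a library, and how long doxycycline had been given before RNA extraction is not stated. Nothing in the labels says whether the 3 libraries of a group came from separate cultures, so the spread between them may be technical.

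N-glycosylation attaches a preassembled sugar tree to asparagines of proteins that enter the endoplasmic reticulum. The tree is built on the lipid dolichol, begun by DPAGT1 on the cytosolic face of the membrane, flipped, completed in the lumen and transferred by the oligosaccharyltransferase complex, after which glucosidases and mannosidases trim it and Golgi enzymes branch it. UDP-GlcNAc, the product of the hexosamine pathway, feeds the first steps, and sialic acid, made from it by way of N-acetylmannosamine, caps finished branches. In myeloid cells many surface receptors and granule proteins carry such glycans.

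The deposited table holds means over all libraries and no value per library. The whole reads of each library were recovered from the digits of the deposited mean and fold change for 15687 of 15687 genes searched, all 54 members among them. As a check, 0 of 500 shifted means gave a solution. These were drawn from genes with lower means than most members, so the check does not cover members with high means. Reads were divided by the size factors, from 0.985 to 1.033, and are called normalized reads here. The recovered libraries carry no replicate number and are lettered a, b and c within each group by falling size factor. The deposited means sum to 38425214 reads. Library pairs differed more within shSPINK2, with a chi-square of 2.85 to 4.23 per gene, than within shNEG, with 1.46 to 1.77, and sampling of reads alone gives about 1. SPINK2 had 56, 63 and 53 reads in shNEG and 7, 9 and 6 in shSPINK2. The libraries were given their groups by the direction of the deposited fold changes, whose column names no comparison. The fall of SPINK2 is in the direction that the labels imply. The myeloid genes CEBPA, SPI1, CD33, CSF3R, PTPRC and MPO had means of 1844 to 32858 normalized counts, CD34 was low at 19.6 and KIT at 0.666. Among markers of other cell types, HBB and EPCAM were listed at 0, CD3E and MS4A1 had means of 0.500 or less, NKG7 was high at 5217, and PECAM1 and COL1A1 were at 98.9 and 149.

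Within this set DPAGT1 fell and RENBP rose by far more than any other member, and the other 52 genes had small fold changes with a median log2 fold change of 0.15. Fold changes are those of shSPINK2 against shNEG in the deposited table, on the log2 scale, each with its standard error (SE). At a deposited adjusted p-value under 0.05, 13 members were lower and 27 higher, 14 did not pass, and 74.1% of members were called where 47.1% of all tested genes were. By direction, the called share of members was 24.1% lower and 50.0% higher, and over all tested genes it was 24.4% lower and 22.7% higher. Since 2 of the members were picked on this contrast, nothing is read from these shares. The same holds for the counts per step given below, which have the same shares over all tested genes as background. The median log2 fold change over all tested genes was 0.01. In bulk RNA, a change in the share of cells of a type and a change in RNA per cell cannot be told apart.

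**Figure D1:**
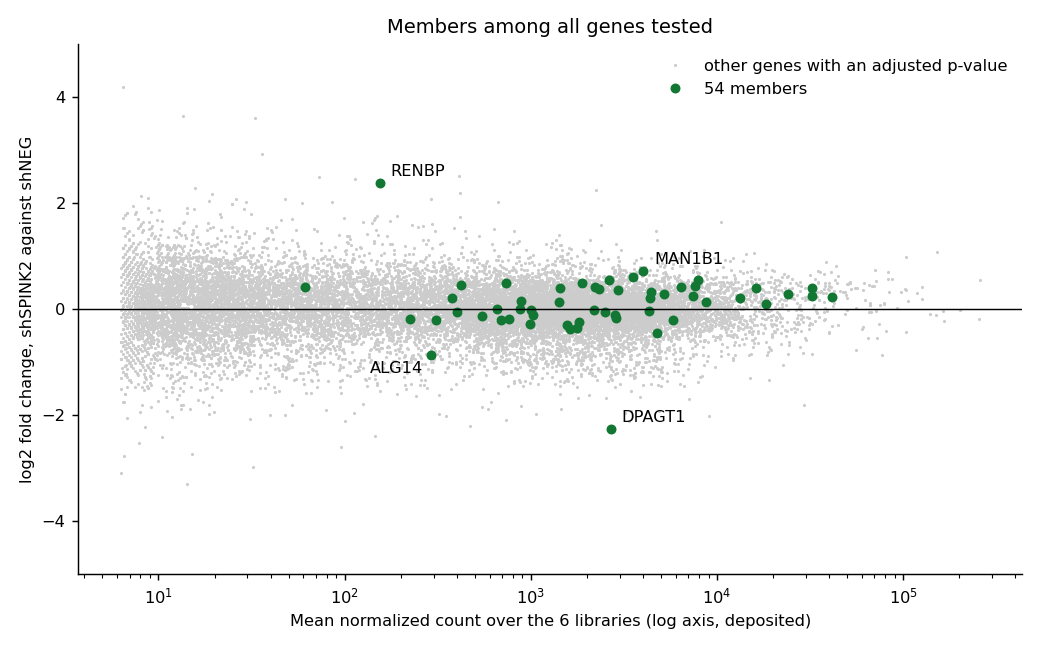
Log2 fold change of shSPINK2 against shNEG (vertical axis) against the mean normalized count over 6 libraries (horizontal axis, log scale), both from the deposited table, with grey points for the tested genes and green points for the 54 members. DPAGT1 at -2.27 and RENBP at 2.38 stand apart from the other members, of which ALG14 at -0.87 is the lowest and MAN1B1 at 0.71 the highest.

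Beyond a log2 fold change of 0.5 in either direction lay 2 lower and 5 higher members, beside 9.26% and 7.77% of all tested genes. Past a log2 fold change of 1 were 1 lower member, DPAGT1, and 1 higher, RENBP, beside 2.71% and 1.56% of tested genes. The remaining 47 members stayed within 0.5 of 0. A count by library was similar, but its reads were recovered from the same deposited values, so it is no separate support. In 16 members every shSPINK2 library was below every shNEG library, in 29 every one was above, and in 9 the groups overlapped. Over the 15687 recovered genes the groups were apart in 29.2% downwards and 28.1% upwards. Genes other than members were recovered only under a mean of 5000. Members with higher means, such as GANAB, DDOST and RPN2, therefore have no such background, and nothing is read from this count. An exact permutation test over 3 against 3 libraries gives a two-sided p of 0.1 at the smallest. Each of the 45 members whose groups were apart takes that value by construction, so it adds nothing to the count.

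**Figure D2:**
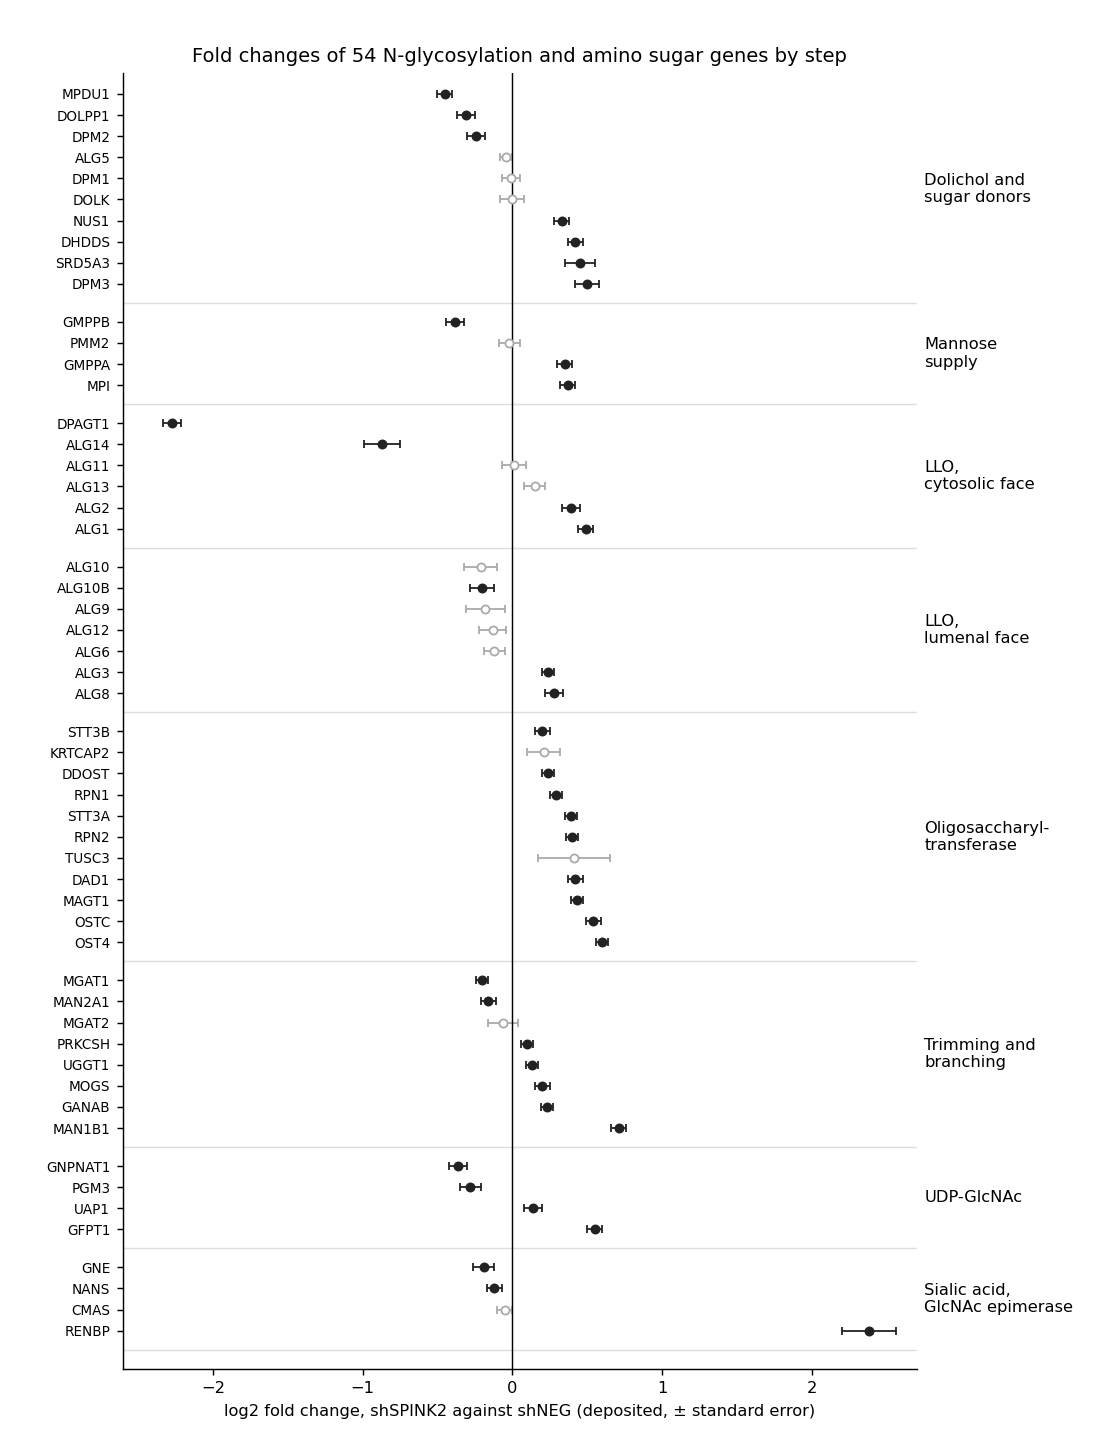
Log2 fold change of shSPINK2 against shNEG with its standard error (horizontal axis, deposited values) for each of the 54 members, grouped by step, where LLO is the lipid-linked oligosaccharide. Filled points have an adjusted p-value under 0.05 and open points do not. All 11 listed oligosaccharyltransferase genes lie to the right of 0, from 0.20 to 0.60, whereas the other steps hold genes on both sides.

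DPAGT1 (ENSG00000172269.18), the enzyme that moves GlcNAc phosphate from UDP-GlcNAc onto dolichol phosphate and the target of tunicamycin, begins the sugar tree. It lies on chromosome 11 from 119096025 to 119108331, minus strand (GRCh38). It had 4314, 4507 and 4499 normalized reads in shNEG and 1010, 922 and 832 in shSPINK2. The groups were far apart, with a mean of 4440 ± 109 (SD, n = 3) against 922 ± 89.2 (SD, n = 3), a difference of -79.2%. The deposited log2 fold change was -2.27 (SE 0.06). Among the 12594 tested genes whose mean reached 50, it held place 3 from the lowest. Per kilobase of its canonical transcript it had 2321 normalized reads in shNEG and 482 in shSPINK2.

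The genes beside DPAGT1 had smaller fold changes. C2CD2L, which overlaps it on the opposite strand, had a log2 fold change of -0.46 (SE 0.07), and H2AFX, a histone variant gene 560 bases away on the same strand, had -1.16 (SE 0.06). On the other side, HINFP was at 0.19 and NLRX1 at 0.01. Whether the counting used strand is not stated, so reads in the overlap of DPAGT1 and C2CD2L cannot be told apart.

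The shRNA targets given in the labels were laid over the members' 3′ UTRs, because the shRNA is the agent that separates the groups. If the guide strand is the reverse complement of the listed target, bases 14 to 20 of the target pair with guide bases 2 to 8, and these are in capitals in the first 2 sequences. Another word, bases 10 to 16 of shRNA2, is in capitals in the last one and was picked by an earlier scan of these same libraries. It is not the stretch that pairs with guide bases 2 to 8.
shRNA1 target, bases 14 to 20: tcagggaaggtggTCATAATa
shRNA2 target, bases 14 to 20: cgccaaactgctcTCAGTATa
shRNA2 target, bases 10 to 16: cgccaaactGCTCTCAgtata

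The 3′ UTRs of canonical transcripts (GENCODE 44) were searched on the transcript strand only, in 11128 genes, 52 members among them, whose mean reached 50 and whose 3′ UTR exceeded 20 bases. The word TCATAAT was found in 6 members (11.5%) and in 13.7% of all these genes, TCAGTAT in 6 members (11.5%) and in 15.9%, and GCTCTCA in 5 members (9.6%) and in 10.5%. DPAGT1 holds GCTCTCA and neither of the other words in a 3′ UTR of 488 bases. The other 4 members with GCTCTCA had log2 fold changes of -0.28 (PGM3), -0.20 (MGAT1), -0.13 (ALG12) and 0.14 (UAP1). Sites are shown for DPAGT1 and for the lowest and the highest of these 4, with the word in capitals, read along the transcript.
DPAGT1, chr11:119096530-119096558, minus strand: gggggccacatGCTCTCAatggagacaat
PGM3, chr6:83166719-83166747, minus strand: ttcttctatgtGCTCTCAagcttattgct
UAP1, chr1:162599999-162600027, plus strand: ttataatagtaGCTCTCAcccaaagatta

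Laid over these sites by the word and without gaps, the 21 bases of shRNA2 matched at 13 positions in DPAGT1, at 12 in PGM3 and MGAT1 and at 9 in UAP1 and ALG12. The word itself accounts for 7 of the matched positions at each site, and the number matched by chance was not worked out. Laid by TCAGTAT, shRNA2 also matched at 13 positions at a site of GFPT1, whose log2 fold change was 0.55, and of ALG10B, at -0.20, and shRNA1 laid by TCATAAT matched at 13 at a site of ALG14 and of ALG10B. The 6 members with TCATAAT were ALG14, GNPNAT1, PGM3, ALG10, ALG10B and NUS1, with log2 fold changes from -0.87 to 0.33. ALG14 has 2 such sites, both shown because it is the second lowest member.
ALG14, chr1:94976832-94976860, minus strand: actgattaggaTCATAATtacgtcccttt
ALG14, chr1:94975419-94975447, minus strand: agcagcgttatTCATAATaacccgaaagt
The 6 members with TCAGTAT ran from PGM3 at -0.28 to GFPT1 at 0.55, with ALG10B, MAN2A1, MGAT2 and UGGT1 between them. A word in a 3′ UTR is a description of the letters, and its part in any fold change was not tested.

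The steps on the cytosolic face after DPAGT1 went both ways. ALG13 and ALG14 together add the next GlcNAc, with ALG13 as the catalytic partner and ALG14 as its membrane anchor. ALG14 (ENSG00000172339.9) had 366, 415 and 349 normalized reads in shNEG and 207, 221 and 191 in shSPINK2. All 3 shSPINK2 libraries were below the lowest shNEG library, and the deposited log2 fold change was -0.87 (SE 0.12). ALG13 had 893, 768 and 841 normalized reads in shNEG and 900, 922 and 955 in shSPINK2. Its shSPINK2 libraries were above those of shNEG by a narrow margin, and its log2 fold change of 0.15 (SE 0.07) did not pass (DESeq2 adjusted p = 0.0843). The ratio of ALG13 to ALG14, per kilobase of canonical transcript, was 5.09 ± 0.756 (SD, n = 3) in shNEG and 10.3 ± 1.000 (SD, n = 3) in shSPINK2. The libraries of the groups did not overlap. The size of this and later ratios per kilobase rests on canonical lengths, and which transcripts were present was not measured.

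The mannosyltransferases that follow on the same face did not fall. ALG1, which adds the first mannose, had 1576, 1597 and 1553 normalized reads in shNEG and 2206, 2232 and 2180 in shSPINK2. Its groups were well apart, with a log2 fold change of 0.49 (SE 0.05), the highest of this step. ALG2 rose by 0.39 (SE 0.06) on the log2 scale, and ALG11 had a log2 fold change of 0.01 (SE 0.08) with overlapping libraries.

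**Figure D3:**
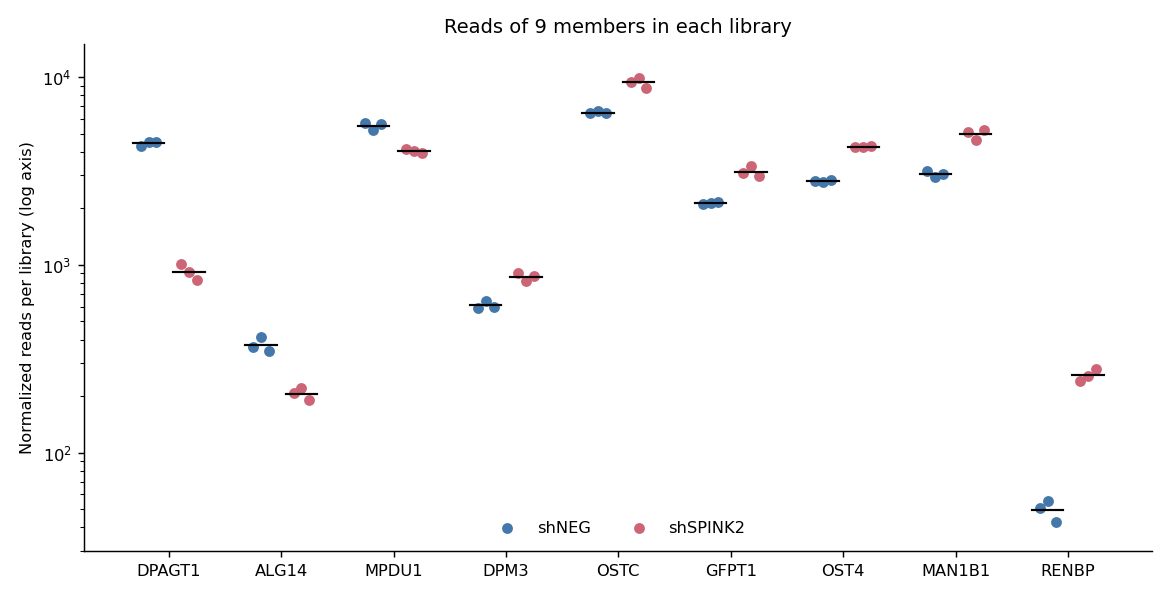
Normalized reads of 9 members in each library (vertical axis, log scale), with blue points for the 3 shNEG libraries, red points for the 3 shSPINK2 libraries and black bars at the group means. The groups are apart in each of the 9 genes, DPAGT1, ALG14 and MPDU1 lying lower in shSPINK2 and DPM3, OSTC, GFPT1, OST4, MAN1B1 and RENBP higher, with RENBP at 43 to 55 against 242 to 278.

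RENBP (ENSG00000102032.12), the epimerase that interconverts N-acetylglucosamine and N-acetylmannosamine and is also known as the renin binding protein, lies on chromosome X from 153935269 to 153944687, minus strand (GRCh38). It had 51, 55 and 43 normalized reads in shNEG and 242, 257 and 278 in shSPINK2. The lowest shSPINK2 library held over 4 times the reads of the highest shNEG library. Group means were 49.6 ± 6.05 (SD, n = 3) and 259 ± 18.2 (SD, n = 3), and the deposited log2 fold change was 2.38 (SE 0.18). This was place 4 from the highest among the same 12594 genes. Per kilobase it stood at 37.2 normalized reads in shNEG, where TUSC3 alone of the members was lower, and at 194 in shSPINK2.

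The tested genes nearest to RENBP had smaller fold changes. ARHGAP4, 270 bases away, had a log2 fold change of 0.43 (SE 0.05), and NAA10, 189 bases away, one of 0.18 (SE 0.06). HCFC1 on the other side was at -0.30 and TMEM187 at 0.29.

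The other enzymes of sialic acid synthesis were close to 0 or slightly lower. GNE, the bifunctional epimerase and kinase that makes N-acetylmannosamine from UDP-GlcNAc and controls the pathway, had 811, 828 and 800 normalized reads in shNEG and 671, 730 and 733 in shSPINK2. Its groups were apart, with a log2 fold change of -0.19 (SE 0.07, DESeq2 adjusted p = 0.0214), the lowest of this step. NANS, the sialic acid synthase, had a log2 fold change of -0.12 (SE 0.05) and passed narrowly (DESeq2 adjusted p = 0.0436). CMAS, which activates sialic acid to its CMP form, had -0.05 (SE 0.05) and did not. Per kilobase of canonical transcript, the ratio of RENBP to GNE was 0.241 ± 0.0254 (SD, n = 3) in shNEG and 1.44 ± 0.0564 (SD, n = 3) in shSPINK2. Without division by transcript length, RENBP stayed below GNE in both groups. Mean normalized reads were 49.6 against 813 in shNEG and 259 against 711 in shSPINK2. Which transcripts of the 2 genes were present was not measured, and RENBP was picked for its fold change.

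The 4 genes that make UDP-GlcNAc moved in opposite directions. GFPT1, the entry enzyme of the hexosamine pathway, had 2122, 2128 and 2153 normalized reads in shNEG and 3094, 3344 and 2958 in shSPINK2. Every shSPINK2 library was above every shNEG library, with a log2 fold change of 0.55 (SE 0.05). GNPNAT1, the acetyltransferase that follows, had 1961, 2032 and 1960 normalized reads in shNEG and 1505, 1626 and 1510 in shSPINK2. It was lower in each shSPINK2 library, with a log2 fold change of -0.36 (SE 0.06). PGM3, the mutase of the next step, was also lower at -0.28 (SE 0.07). UAP1, which forms UDP-GlcNAc, was higher at 0.14 (SE 0.06) and passed narrowly (DESeq2 adjusted p = 0.0431). The ratio of GFPT1 to GNPNAT1 per kilobase went from 0.480 ± 0.0117 (SD, n = 3) in shNEG to 0.903 ± 0.0252 (SD, n = 3) in shSPINK2. Without division by transcript length, GFPT1 was above GNPNAT1 in both groups. Mean normalized reads were 2134 against 1984 in shNEG and 3132 against 1547 in shSPINK2.

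Dolichol supply and the dolichol-linked sugar donors comprised 10 genes, of which 3 were lower, 4 higher and 3 did not pass. DHDDS and NUS1, the subunits of the prenyltransferase that makes the dolichol chain, rose together with log2 fold changes of 0.42 and 0.33 (SE 0.05 each). SRD5A3, which acts in the reduction of polyprenol to dolichol, rose by 0.45 (SE 0.10). DOLK, the dolichol kinase, was at -0.00 (SE 0.08) with overlapping libraries, and DOLPP1, which recycles dolichyl pyrophosphate, was lower at -0.31 (SE 0.06). The ratio of NUS1 to DHDDS per kilobase was 1.43 ± 0.0656 (SD, n = 3) in shNEG and 1.34 ± 0.0539 (SD, n = 3) in shSPINK2, with overlapping libraries.

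The subunits of dolichol phosphate mannose synthase differed from each other. DPM1, the catalytic subunit, had a log2 fold change of -0.01 (SE 0.06), and DPM2, a stabilising subunit, of -0.24 (SE 0.06). DPM3, the subunit that anchors DPM1 in the membrane, had 593, 646 and 599 normalized reads in shNEG and 903, 825 and 869 in shSPINK2. The groups of DPM3 were apart, and its log2 fold change of 0.50 (SE 0.08) was the highest of the step. MPDU1, needed for the use of dolichol-linked mannose and glucose in the lumen, had 5704, 5212 and 5592 normalized reads in shNEG and 4121, 4050 and 3920 in shSPINK2. It was the lowest gene of the step, at -0.45 (SE 0.05). ALG5, which makes dolichol phosphate glucose, had -0.04 (SE 0.04) and did not pass.

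Of the 4 genes that supply GDP-mannose, the 2 subunits of its pyrophosphorylase went opposite ways. GMPPB, the catalytic subunit, had 1849, 1867 and 1793 normalized reads in shNEG and 1470, 1299 and 1450 in shSPINK2, and a log2 fold change of -0.38 (SE 0.06). GMPPA, the regulatory subunit, rose by 0.35 (SE 0.05). The ratio of GMPPA to GMPPB per kilobase rose from 2.90 ± 0.128 (SD, n = 3) to 4.82 ± 0.266 (SD, n = 3), with no overlap between groups. MPI, the isomerase that links mannose to glycolysis, had 2059, 1991 and 2024 normalized reads in shNEG and 2533, 2677 and 2653 in shSPINK2. It was the highest of the step, at 0.37 (SE 0.05). PMM2, the phosphomannomutase, was at -0.02 (SE 0.07) with overlapping libraries.

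On the lumenal face, 1 of 7 genes was lower, 2 were higher and 4 did not pass. ALG8, a glucosyltransferase, had 4779, 4516 and 4753 normalized reads in shNEG and 5479, 6313 and 5314 in shSPINK2. It was the highest of the step, with a log2 fold change of 0.28 (SE 0.06), and the mannosyltransferase ALG3 rose by 0.24 (SE 0.04). ALG10 and ALG10B, which add the last glucose, are near-identical copies between which reads may have been split, so each is uncertain. ALG10 had 321, 335 and 336 normalized reads in shNEG and 252, 317 and 287 in shSPINK2. Its log2 fold change of -0.21 (SE 0.11) was the lowest of the step and did not pass (DESeq2 adjusted p = 0.113). ALG10B was at -0.20 (SE 0.08) and passed narrowly (DESeq2 adjusted p = 0.0318). The mannosyltransferases ALG9 and ALG12 and the glucosyltransferase ALG6 had log2 fold changes from -0.18 to -0.12 and did not pass.

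The oligosaccharyltransferase was the step whose members all had positive log2 fold changes. Of the 11 genes listed for it 9 were higher and 2 did not pass, with a median log2 fold change of 0.40. Over all tested genes 22.7% were called higher, but those were not matched by mean to this step, whose means ran from 61.0 to 32466. The complex exists in a form with STT3A, which acts as proteins are translocated, and a form with STT3B. STT3A had 14128, 13928 and 14036 normalized reads in shNEG and 17836, 19105 and 18154 in shSPINK2, a log2 fold change of 0.39 (SE 0.04). STT3B had 12583, 12220 and 12505 in shNEG and 13667, 15290 and 13765 in shSPINK2, a log2 fold change of 0.20 (SE 0.05) and the lowest of the 11. The ratio of STT3A to STT3B per kilobase was 1.03 ± 0.00905 (SD, n = 3) in shNEG and 1.18 ± 0.0335 (SD, n = 3) in shSPINK2, and its groups were apart.

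The shared subunits rose by 0.24 (DDOST), 0.29 (RPN1), 0.40 (RPN2) and 0.42 (DAD1), with standard errors of 0.04 or 0.05. OST4, a very small subunit of the catalytic core, had 2811, 2762 and 2841 normalized reads in shNEG and 4220, 4239 and 4303 in shSPINK2. Its libraries were tight within each group, and its log2 fold change of 0.60 (SE 0.04) was the highest of the 11 members of this step. TMEM258, a further subunit of the complex that is not a member and was counted in the list of lectin quality control, had 0.69 (SE 0.06). OSTC, which joins the STT3A form, had 6400, 6558 and 6400 in shNEG and 9463, 9923 and 8694 in shSPINK2, a log2 fold change of 0.54 (SE 0.05). KRTCAP2, the other subunit of that form, was at 0.21 (SE 0.11) with overlapping libraries and did not pass (DESeq2 adjusted p = 0.116).

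MAGT1 and TUSC3 are alternative oxidoreductase subunits of the STT3B form. MAGT1 was by far the more abundant, with 1433 normalized reads per kilobase in shNEG and 1924 in shSPINK2, and rose by 0.43 (SE 0.04). TUSC3 had 58, 46 and 53 normalized reads in shNEG and 72, 61 and 76 in shSPINK2, the fewest of the members after RENBP in shNEG and the fewest of all in shSPINK2. Its groups were narrowly apart, and its log2 fold change of 0.41 (SE 0.24) did not pass (DESeq2 adjusted p = 0.144). The ratio of MAGT1 to TUSC3 per kilobase was 102 ± 11.5 (SD, n = 3) and 103 ± 16.2 (SD, n = 3).

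**Figure D4:**
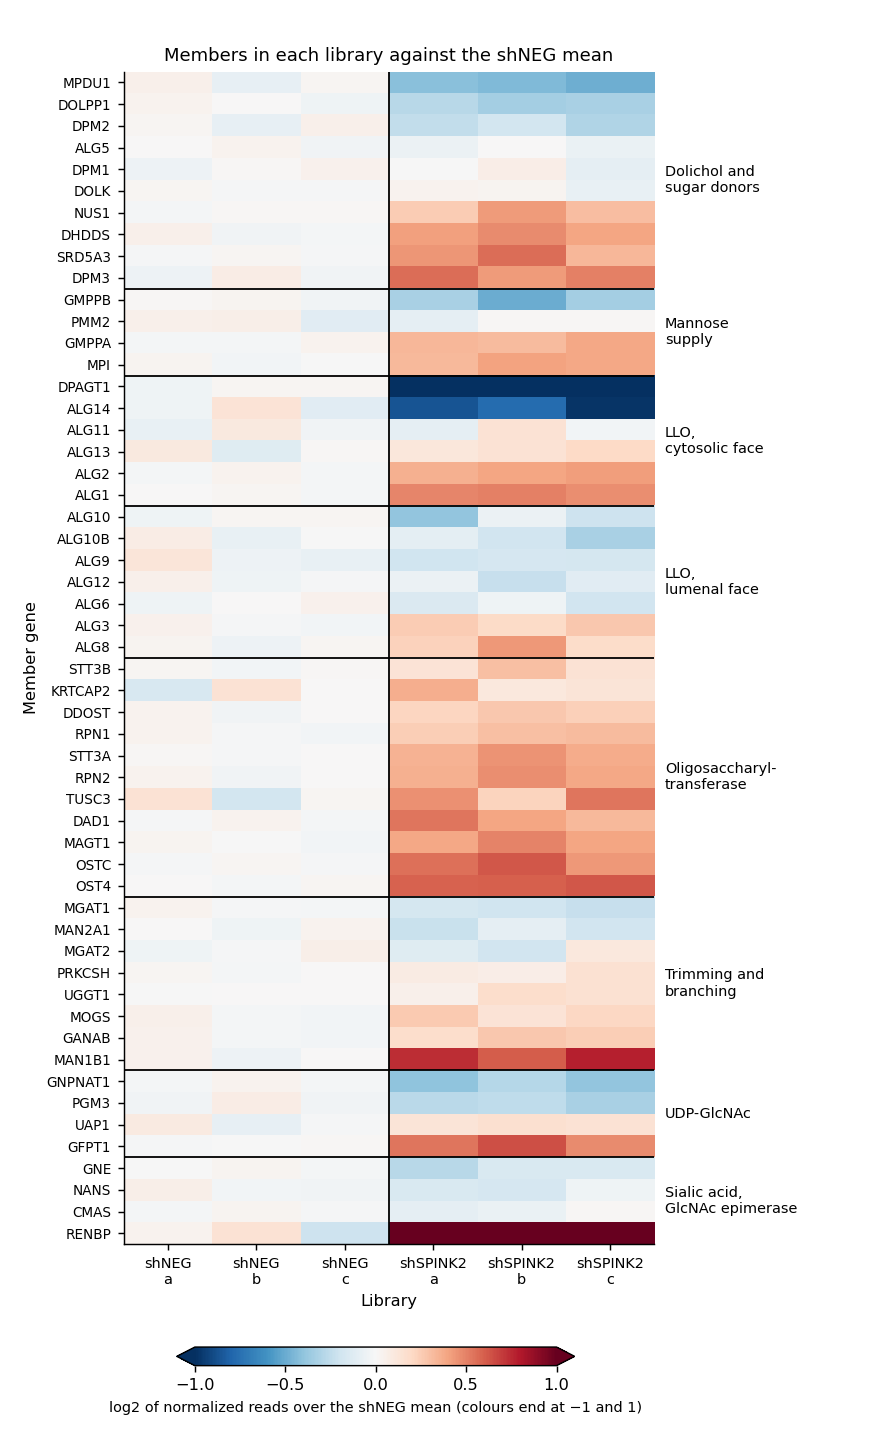
Colour map of the log2 ratio of normalized reads in each library (columns) to the mean of the 3 shNEG libraries, for the 54 members (rows) grouped by step, with blue for lower, red for higher and colours that end at -1 and 1. DPAGT1 and ALG14 are dark blue and RENBP and MAN1B1 dark red in all 3 shSPINK2 libraries, and 9 members, such as DOLK and DPM1, have groups that overlap.

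Among 8 trimming and branching genes, 2 were lower, 5 higher and 1 did not pass. MAN1B1, the mannosidase that marks misfolded glycoproteins for degradation, had 3149, 2942 and 3058 normalized reads in shNEG and 5084, 4635 and 5240 in shSPINK2. It had the largest rise of the members after RENBP, with a log2 fold change of 0.71 (SE 0.05) and group means of 3050 ± 104 (SD, n = 3) and 4987 ± 314 (SD, n = 3). MOGS, glucosidase I, rose by 0.20 (SE 0.05). GANAB and PRKCSH, the catalytic and the regulatory subunit of glucosidase II, rose by 0.23 and 0.10 (SE 0.04 each), PRKCSH with a DESeq2 adjusted p = 0.0166. UGGT1, which puts a glucose back on unfolded glycoproteins, rose by 0.13 (SE 0.04).

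Of the Golgi enzymes of the set, MGAT1, MAN2A1 and MGAT2 were not higher. MGAT1, which starts the first branch, had 6319, 6119 and 6101 normalized reads in shNEG and 5462, 5396 and 5270 in shSPINK2. It was the lowest of the step, with a log2 fold change of -0.20 (SE 0.04). MAN2A1, the mannosidase that acts next, was at -0.16 (SE 0.05) and passed, whereas MGAT2, which starts the other branch, was at -0.06 (SE 0.10) and did not.

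Genes of the neighbouring pathways were counted from lists in the same way. The background is again 47.1% of all tested genes called, 24.4% lower and 22.7% higher. It holds genes with means down to 6.31 and is not matched to the lists by mean, so nothing is read from the list counts. Of 16 tested genes of Golgi branching and transport, 10 were lower, 3 higher and 3 did not pass. SLC35A1, the transporter that brings CMP-sialic acid into the Golgi, was the lowest at -1.03 (SE 0.10), with 573, 635 and 710 normalized reads in shNEG and 310, 331 and 295 in shSPINK2. ST3GAL6, a sialyltransferase, was the highest at 0.42 (SE 0.07).

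Of 14 tested genes in the list of lectin quality control and glycoprotein disposal, 1 was lower, 11 were higher and 2 did not pass. The 11 include TMEM258, which is an oligosaccharyltransferase subunit and neither a lectin nor a disposal gene. EDEM1, which helps to hand misfolded glycoproteins to degradation, was the highest at 0.90 (SE 0.04). ERLEC1, a lectin of the same route, was the lowest at -0.64 (SE 0.05), with 2513, 2668 and 2542 normalized reads in shNEG and 1600, 1717 and 1648 in shSPINK2. Calnexin (CANX) and calreticulin (CALR), the lectin chaperones of this cycle, rose by 0.44 and 0.19 (SE 0.04 each).

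GPI anchors draw on the same dolichol phosphate mannose and UDP-GlcNAc. Of 20 tested genes of their synthesis, 4 were lower, 9 higher and 7 did not pass, from PIGS at -0.34 (SE 0.05) to PIGG at 0.46 (SE 0.05). PIGA, the catalytic subunit of the first step, which uses UDP-GlcNAc as DPAGT1 does, was lower at -0.27 (SE 0.08).

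Of 18 tested genes of amino sugar recycling and glycan breakdown, 1 was lower, 12 were higher and 5 did not pass. FUCA1, the lysosomal fucosidase, was the highest at 1.00 (SE 0.08), with 447, 460 and 447 normalized reads in shNEG and 866, 918 and 929 in shSPINK2. NPL, the lyase that splits sialic acid into N-acetylmannosamine and pyruvate, was the lowest at -0.50 (SE 0.09). RENBP can turn the N-acetylmannosamine it releases into N-acetylglucosamine. NAGK, the kinase that returns N-acetylglucosamine to the pathway, was higher at 0.28 (SE 0.06).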

How the data were processed

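The authors sequenced 6 FUJIOKA libraries (paired reads, 150 bases), aligned them to GRCh38 with STAR, counted reads per gene with featureCounts and ran DESeq2 (STAR 2.7.11 and DESeq2 1.40.0 in the submitters' processing notes). The annotation release and the strandedness of counting are not given in the sources used here. The authors' deposited table gives, per gene, a signal, the mean count after division by size factors, then the log2 fold change and its standard error, the Wald score, and the p-value before and after adjustment. These columns are the authors' own comparison, and their values are printed as such.

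Reads per library were recovered as follows. The 6 size factors follow from the deposited means that genes with 1 read share, and each library's group from the direction of those genes' fold changes. A gene's reads are the whole numbers that return its mean and, in a 2-group negative binomial fit, its fold change within 1e-13. Tested genes with a mean under 5000 and all members were searched, 90.2% of genes with an adjusted p-value. The recovery and limma were tested on simulated data, the recovery only with genes of lower mean than many members.

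A call is a deposited adjusted p-value under 0.05. Values are given for DPAGT1, RENBP, members past a log2 fold change of 0.5 in either direction, the highest and the lowest member of each step and of each other list. SPINK2, neighbours, markers, partner subunits and other genes named beside them were named after their values were seen. Some marker and neighbouring genes are not reported here. Members, lists and the words searched were chosen with earlier results of these data known. Alternatives were other thresholds, filters, adjustments and centring, limma on log2(CPM + 0.5) of the recovered reads, and leaving out each library. Gene positions and transcripts are from GENCODE 44, which matched 17233 of 17395 tested genes by identifier. Reads carry no molecular identifiers, so duplicates could not be told from separate molecules. Tools were limma 3.58.1 in R 4.3.3, and numba 0.67.0, scipy 1.17.1, pandas 2.3.3 and numpy 2.4.6 in Python 3.11.15.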

Additional observations from a re-analysis of the deposited data

How the results depend on the processing

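The main counts were 13 members lower and 27 higher. With an absolute log2 fold change over 1 they were 1 lower and 1 higher, and with Bonferroni adjustment 7 lower and 21 higher. In a test against an absolute log2 fold change of 0.2 there were 5 lower and 18 higher. Under the other alternatives, limma on the recovered reads and groups of normalized reads that do not overlap among them, the latter chosen after seeing the data, both counts stayed within 1.5 times the main ones. Leaving out each library in turn, with limma, gave 12 to 14 lower and 24 to 29 higher members. No called member changed direction under any of these alternatives. The SPINK2 log2 fold change, -2.98 as deposited, lay between -1.57 and -1.48 when each library was left out, since the pseudocount of that scale understates low genes. For the same reason RENBP was at 2.02 with limma. The list counts stayed within 1.5 times theirs at an adjusted p-value under 0.01 and with a mean of at least 50. No paired analysis was possible because the recovered libraries carry no replicate number. The depth limits TUSC3, with 61.0 normalized counts on average, more than the other members.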
